A study of Homo sapiens with 4 samples.

Results

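Sterol synthesis enzymes and cholesterol uptake genes were examined in HCT116, a human colorectal carcinoma cell line in long use and labelled as wild type, after treatment with the piperine derivative HJ-4. The members were 32 named genes of 20263 Ensembl gene IDs in the table: 9 mevalonate enzymes up to the formation of squalene, 12 enzymes of the post-squalene steps, 9 genes of uptake, intracellular transport and SREBP2 regulation, and 2 exporters on the LXR side. All 32 passed the filter on low counts and were among the 14044 genes tested. RNA sequencing compared 2 libraries of cells given 32 µM HJ-4 with 2 libraries of cells given the vehicle DMSO at 0.1%, both for 24 h. The dose is that of the labels and the methods, and a figure legend of the study gives a lower one. Biological triplicates are described in the study's methods, but the labels do not state whether the libraries analysed here were separate cultures. P-values cover only the variation among these 4 libraries, part or all of which may be technical. In the bulk RNA of a culture, fewer cells of a kind and less RNA per cell cannot be told apart.

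Cholesterol is built from acetyl-CoA. The mevalonate enzymes make isoprenoid units and join them into squalene, and the post-squalene enzymes close the ring and trim it to cholesterol. The pathway is set by a feedback loop at the endoplasmic reticulum: when membrane sterol is low, SCAP escorts the transcription factor SREBP2 to the Golgi, where it is cleaved and freed to activate genes of synthesis and uptake, and when sterol is high, INSIG proteins hold SCAP back. In the opposite direction, oxysterols activate the LXR receptors, which induce exporters of cholesterol such as ABCA1 and ABCG1 and the ubiquitin ligase MYLIP, which removes lipoprotein receptors. In colorectal carcinoma cells the pathway supplies membranes and the lipid anchors of small GTPases.

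The libraries held 29769568 to 34359889 counts. Of 8 markers of colorectal epithelium, EPCAM, KRT8, KRT18 and CDH1 were abundant, KRT20 had at most 19 counts in a library, VIL1 and GPA33 at most 14, and CDX1 was at 0 in all 4 libraries. Summed over the 8 markers, the level was 2492 to 2752 CPM (counts per 1000000 counts, with library sizes scaled by TMM) under DMSO and 2690.1 to 2736 CPM under HJ-4. CDH1, the E-cadherin gene, had a log2 fold change of 0.41 (edgeR adjusted p = 0.20). In DESeq2's Wald test CDH1 had an adjusted p of 0.0295, and its part in the results was not tested. Each of the marker lists of leukocytes, endothelium, hepatocytes and steroidogenic cells summed to at most 1.44 CPM in a library. Of the 3 fibroblast markers COL1A2 and DCN were at 0, and COL1A1 accounted for 58.2 to 62.6 CPM in the 4 libraries.

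SREBP2 acts together with the factors NF-Y and Sp1, so sequence upstream of the members was inspected. The short recognition sequences of these factors are the CCAAT box and the GC box. The stretches below come from RefSeq windows on GRCh38.p14 and end before a RefSeq start. Those of DHCR7 and SCAP lie wholly inside the gene span of GENCODE v44. They were chosen to show enzymes whose HJ-4 libraries lay above the DMSO libraries (HMGCS1, FDPS, MVD, MSMO1 and DHCR7), the regulator SREBF2, and SCAP, whose HJ-4 libraries lay below. Capitals mark CCAAT or its reverse complement, GGGCGG or its reverse complement, and TCACNCCAC, the core of the sterol regulatory element.
HMGCS1, chr5:43313513-43313632, minus strand: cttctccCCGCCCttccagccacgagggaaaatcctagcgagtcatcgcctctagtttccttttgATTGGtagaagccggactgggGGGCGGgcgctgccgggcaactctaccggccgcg
FDPS, chr1:155308681-155308751, plus strand: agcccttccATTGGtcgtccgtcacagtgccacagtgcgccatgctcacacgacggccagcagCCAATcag
MVD, chr16:88663162-88663256, minus strand: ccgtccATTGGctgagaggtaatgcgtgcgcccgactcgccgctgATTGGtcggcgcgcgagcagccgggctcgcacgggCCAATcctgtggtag
MSMO1, chr4:165327479-165327644, plus strand: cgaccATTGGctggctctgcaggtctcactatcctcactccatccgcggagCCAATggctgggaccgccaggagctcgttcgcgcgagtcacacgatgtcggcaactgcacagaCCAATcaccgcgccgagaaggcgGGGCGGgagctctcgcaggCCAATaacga
DHCR7, chr11:71448436-71448598, minus strand: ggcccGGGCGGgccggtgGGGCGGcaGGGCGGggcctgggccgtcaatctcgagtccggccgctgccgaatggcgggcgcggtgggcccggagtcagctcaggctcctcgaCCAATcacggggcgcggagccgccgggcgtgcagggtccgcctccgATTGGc
SREBF2, chr22:41832965-41833100, plus strand: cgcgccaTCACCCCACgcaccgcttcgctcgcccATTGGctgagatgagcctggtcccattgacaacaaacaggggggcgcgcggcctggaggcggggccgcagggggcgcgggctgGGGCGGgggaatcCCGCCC
SCAP, chr3:47475956-47476111, minus strand: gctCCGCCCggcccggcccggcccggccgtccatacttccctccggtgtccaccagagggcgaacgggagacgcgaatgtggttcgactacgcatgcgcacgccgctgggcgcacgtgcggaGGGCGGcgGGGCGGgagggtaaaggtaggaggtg

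The printed MSMO1 stretch holds 4 CCAAT boxes, that of MVD holds 3, those of FDPS and DHCR7 hold 2 each, and that of HMGCS1 holds 1. Over the full 250 bases before the same starts, FDPS has 3 and HMGCS1 has 2. Before their second listed starts, HMGCS1 and DHCR7 have 0. MVK and NSDHL, which are not printed, hold 5 each in the 250 bases before their start, the most among the members. Their log2 fold changes were 0.14 and 0.13. The SREBF2 stretch holds 1 CCAAT box and the single match to TCACNCCAC found among the members, and the SCAP stretch holds 3 GC boxes and 0 CCAAT boxes. RefSeq windows were at hand for 28 of the 32 members. In the 250 bases before a start, on either strand, 15 of 18 enzymes had a CCAAT box before at least 1 of their starts. The same held for 37.0% of 27305 genes with a window. That set was not filtered by expression, whereas all members passed the filter on low counts, and the effect of this on the shares was not tested. A GC box was present for 16 of 18 enzymes and for 46.2% of all genes, and TCACNCCAC for 0 of 18 enzymes and for 1.09% of all genes. The letters of a CCAAT box and a GC box can overlap by a pair of bases, and both were then counted. A match describes the letters and not a bound site, and the absence of one says only that these letters are not in the window. All 11 members with a window that were higher with HJ-4 at unadjusted p below 0.05 had a CCAAT box, against 10 of the 17 other members, and no test was made of this difference. The 11 were picked by p in these same data, and the letters were chosen with earlier results known, so no link is drawn from it. CYP51A1, whose HJ-4 libraries lay above DMSO at an unadjusted p of 0.054 in edgeR, had 0 CCAAT boxes in its window.

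**Figure D1:**
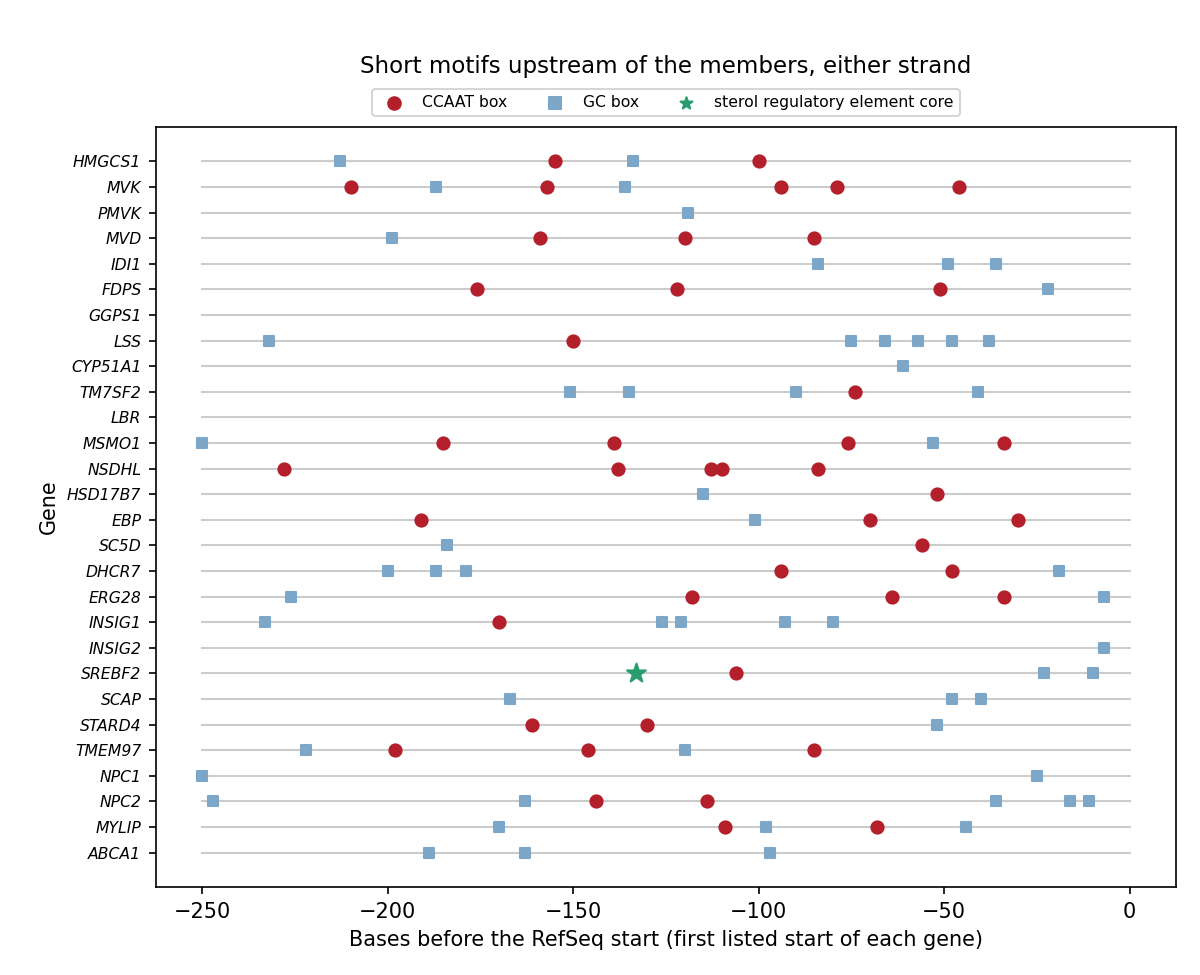
Positions of CCAAT boxes (circles), GC boxes (squares) and the sterol regulatory element core (star) in the 250 bases before the first listed RefSeq start of 28 members, with the distance from the start in bases on the x axis and genes on the y axis. The star is at SREBF2, the row of MSMO1 holds 4 circles, and the rows of MVK and NSDHL hold 5 each.

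Levels of the sterol synthesis enzymes leaned to the HJ-4 side as a group, although none passed an adjusted p of 0.05 in edgeR's test. Of the 21 enzymes, 20 had a positive log2 fold change (HJ-4 over DMSO). The pair of HJ-4 libraries exceeded the pair of DMSO libraries for 18 enzymes and lay below it for 0. The share of mitochondrially encoded genes also went with condition, at 6.59% and 7.73% of counts under DMSO and 6.01% and 6.41% under HJ-4, without overlap, and its part in this result was not tested. Among all genes tested, 25.2% had both HJ-4 libraries above and 25.6% below. The median log2 fold change of the 21 enzymes was 0.37, against 0.0040 over all 14044 genes. Summed over the enzymes, the level was 3005 and 2777 CPM in the DMSO libraries and 4059 and 3893 CPM in the HJ-4 libraries, which is 0.281% to 0.303% and 0.385% to 0.402% of all counts. TPM, which divide by exonic length before scaling to the same total, summed to 2604 and 2380 with DMSO and to 3499 and 3298 with HJ-4.

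In edgeR's quasi-likelihood test, with p adjusted by the method of Benjamini and Hochberg over all genes, 0 of 32 members were called at an adjusted p below 0.05 (smallest adjusted p = 0.063), where 0.0427% of all genes were called higher and 0.00712% lower. Before adjustment, at p below 0.05, there were 13 members on the higher side and 2 on the lower, where 7.93% of all genes were higher and 7.93% lower. The 13 comprised 6 of 9 mevalonate enzymes, 6 of 12 post-squalene enzymes, 1 of 9 uptake and regulator genes and 0 of 2 exporters. By its own Wald test, DESeq2 placed 8 members above and 0 below DMSO at an adjusted p below 0.05, against 2.46% and 1.84% of the genes to which it gave an adjusted p. These were the enzymes ACAT2, HMGCS1, MVD, FDPS, FDFT1, MSMO1, HSD17B7 and DHCR7. limma-voom called 0 members, and edgeR called ACAT2 once DMSO replicate 1 was left out. Without HJ-4 replicate 1 the count of 13 was 8 and without DMSO replicate 1 it was 15. The 2 lower members became 0 without DMSO replicate 1 or HJ-4 replicate 2.

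**Figure D2:**
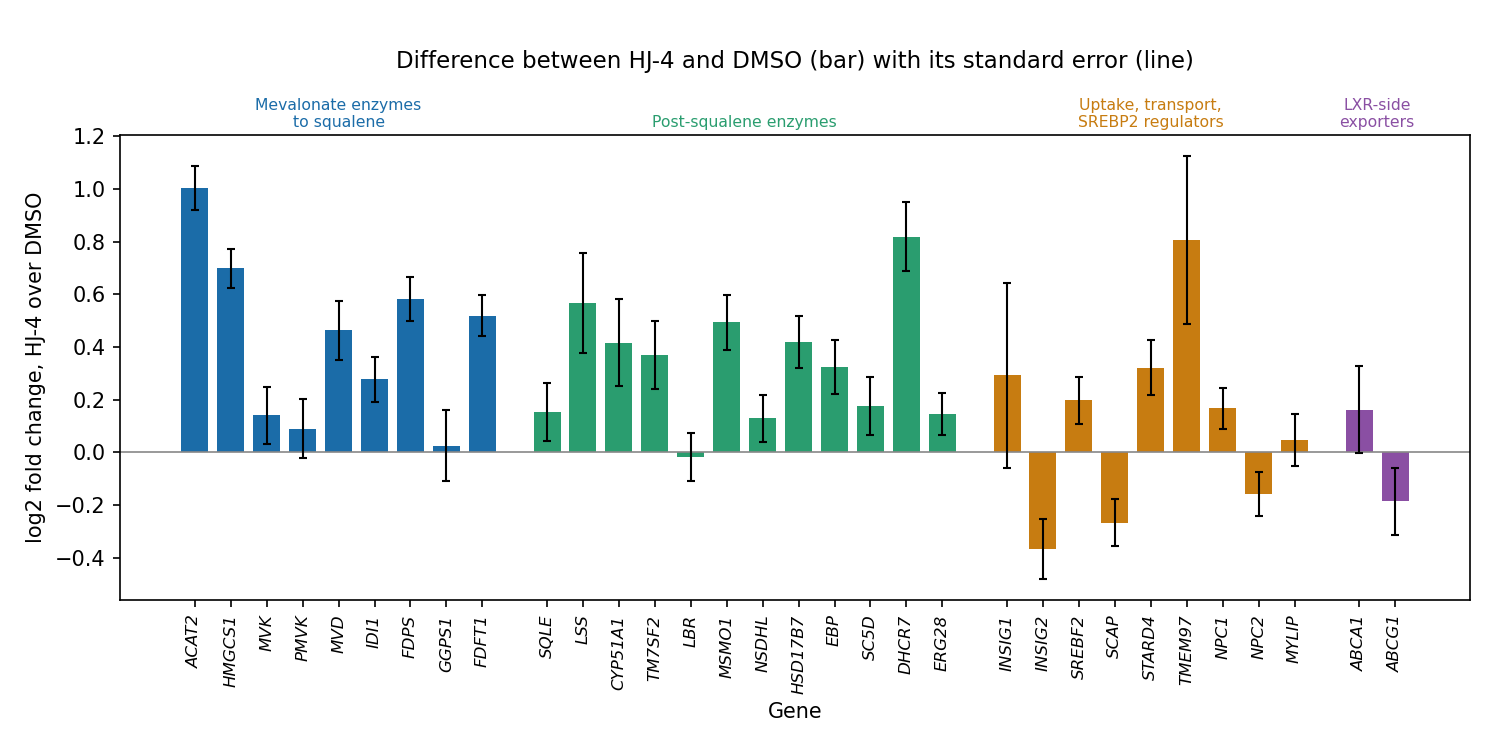
Log2 fold change of each member (bars, HJ-4 over DMSO) with its standard error from edgeR (lines), ordered by step of the pathway. Bars of the enzymes lie between -0.02 for LBR and 1.00 for ACAT2, and the bars below 0 outside the enzymes are those of INSIG2, SCAP, NPC2 and ABCG1.

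ACAT2, the cytosolic thiolase that joins acetyl-CoA units at the entry of the pathway, had the largest log2 fold change among the members. It stood at 39.5 and 39.2 CPM under DMSO versus 80.4 and 77.2 CPM under HJ-4. The HJ-4 values lay far above the DMSO values, with a log2 fold change of 1.00 (standard error (SE) 0.08, 95% interval 0.79 to 1.22, edgeR adjusted p = 0.063). ACAT2 lies on chromosome 6 of GRCh38 from 159762045 to 159779112, and 22.2% of its exonic bases overlap TCP1, SOD2 or SOD2-OT1 on the other strand, by GENCODE v44. The sources used here do not say whether counting was by strand, and without it the reads of such partners cannot be told apart. TCP1, a chaperonin subunit gene, averaged 211 CPM under DMSO and 221 CPM under HJ-4 (log2 fold change 0.06, edgeR adjusted p = 0.76). SOD2 and SOD2-OT1 were not analysed here.

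HMGCS1 makes the HMG-CoA from which mevalonate is formed. Its level was 349.9 and 354 CPM with DMSO and 587 and 556 CPM with HJ-4. The groups lay far apart compared with the distance between libraries of a condition, and the log2 fold change was 0.70 (SE 0.08, 95% interval 0.51 to 0.89, edgeR adjusted p = 0.080). HMGCS1 lies on chromosome 5 from 43287470 to 43313512. Of its exonic bases 37.7% overlap an opposite-strand transcript, ENSG00000261604, which was not analysed here.

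The enzymes that lead to squalene followed in size. FDPS, the synthase of farnesyl diphosphate, was at 249 and 232 CPM under DMSO versus 348 and 372 CPM under HJ-4 (log2 fold change 0.58, SE 0.08, edgeR adjusted p = 0.11). FDFT1, which condenses farnesyl diphosphate to squalene and so commits it to sterols, was at 244 and 237 CPM under DMSO versus 334 and 355 CPM under HJ-4 (log2 fold change 0.52, SE 0.08, edgeR adjusted p = 0.12). MVD, the decarboxylase that yields isopentenyl diphosphate, was at 189 and 158 CPM under DMSO versus 234 and 245 CPM under HJ-4 (log2 fold change 0.46, SE 0.11, edgeR adjusted p = 0.20). None of the 3 genes overlapped between conditions, and the DMSO libraries of MVD were the farthest apart. Over all genes tested, 25.2% had both HJ-4 libraries above. IDI1, the isomerase of isopentenyl diphosphate, had a log2 fold change of 0.28, with 300.4 and 276 CPM under DMSO versus 359.6 and 339 CPM under HJ-4. FDPS lies on chromosome 1 from 155308748 to 155320666, and 18.6% of its exonic bases overlap the antisense gene RUSC1-AS1, which was not analysed here.

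The other mevalonate genes had intervals that included 0. MVK and PMVK, the kinases that phosphorylate mevalonate in succession, had log2 fold changes of 0.14 (95% interval -0.14 to 0.42) and 0.09 (95% interval -0.20 to 0.38). GGPS1, which diverts farnesyl diphosphate to the lipid anchor geranylgeranyl diphosphate, was at 25.7 and 30.8 CPM under DMSO versus 30.6 and 27.0 CPM under HJ-4. Of its 3809 exonic bases, 1422 are shared with a gene on its own strand. The HJ-4 values of GGPS1 lay inside the DMSO range, and the log2 fold change was 0.03 (95% interval -0.32 to 0.37). The median log2 fold change of the 9 mevalonate genes was 0.46, and without DMSO replicate 2 it was 0.34.

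**Figure D3:**
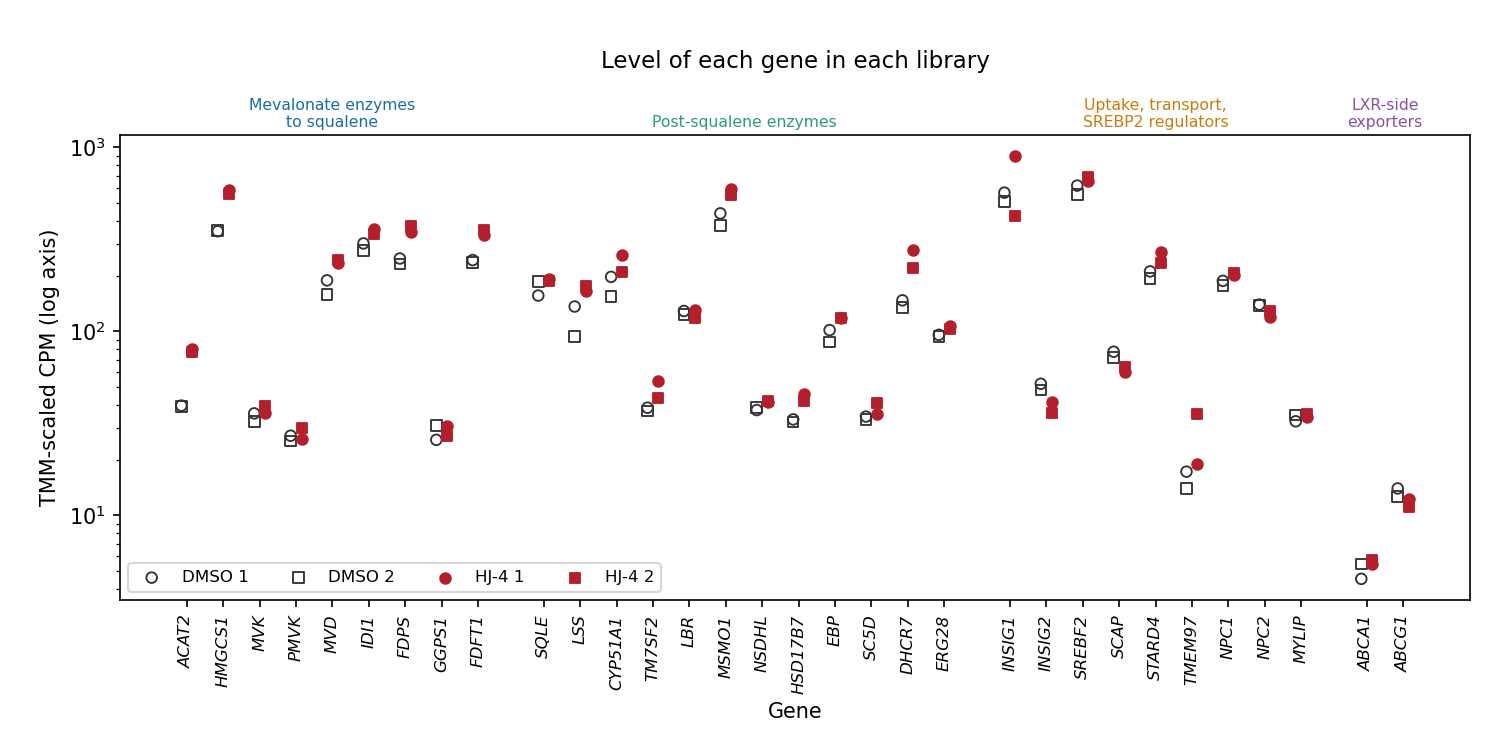
TMM-scaled CPM on a log axis for each member in each library, ordered by step. Open symbols are DMSO and filled symbols HJ-4, circles are replicate 1 and squares replicate 2, and INSIG1 shows the HJ-4 libraries at 895 and 421 CPM on either side of the DMSO libraries.

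Among the post-squalene enzymes, DHCR7 and MSMO1 had the smallest p. DHCR7, the reductase of 7-dehydrocholesterol at the end of the pathway, was at 147 and 135 CPM under DMSO versus 277 and 222 CPM under HJ-4. Even the lower HJ-4 library was well above DMSO, and the log2 fold change was 0.82 (SE 0.13, 95% interval 0.48 to 1.16, edgeR adjusted p = 0.13). It lies on chromosome 11 from 71428193 to 71452868. MSMO1, the methyl sterol oxidase that starts demethylation at C4, was the enzyme with the highest level per length, at a mean of 481 TPM under DMSO and 685 TPM under HJ-4. Its CPM were 437 and 376 with DMSO and 595 and 550.3 with HJ-4, without overlap (log2 fold change 0.49, SE 0.10, edgeR adjusted p = 0.18). MSMO1 lies on chromosome 4 from 165327667 to 165343164.

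HSD17B7, the keto reductase of C4 demethylation, was at 33.2 and 32.1 CPM under DMSO versus 45.4 and 41.9 CPM under HJ-4 (log2 fold change 0.42, SE 0.10, edgeR adjusted p = 0.20). The libraries of each condition were close together and the conditions did not overlap. EBP, the sterol isomerase, was at 102 and 87.6 CPM under DMSO versus 118 and 119 CPM under HJ-4 (log2 fold change 0.32, SE 0.10, edgeR adjusted p = 0.26), and shares 644 of its 1768 exonic bases with a gene on its own strand. LSS, which cyclizes squalene epoxide to lanosterol, was at 136 and 93.7 CPM under DMSO versus 166 and 175 CPM under HJ-4 (log2 fold change 0.57, SE 0.19, edgeR adjusted p = 0.27). The size for LSS rested on its DMSO libraries, since the log2 fold change was 0.86 without DMSO replicate 1 and 0.32 without DMSO replicate 2. A gap between DMSO libraries as large as that of LSS occurred in 97 of 2017 genes averaging 100 CPM or more.

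The steps beside LSS had smaller values. SQLE, the squalene epoxidase, which is a rate-limiting step, was at 156 and 186 CPM under DMSO versus 193 and 189 CPM under HJ-4. The HJ-4 libraries lay just above the higher DMSO library, and the log2 fold change was 0.15 (95% interval -0.13 to 0.43). CYP51A1, the demethylase of lanosterol, had a log2 fold change of 0.42 (95% interval -0.01 to 0.84) and shares 5.9% of its exonic bases with genes on the opposite strand, among them AKAP9, which had a log2 fold change of 0.50 (edgeR adjusted p = 0.50). On its own strand, 2844 of its 4171 exonic bases also belong to ENSG00000285772 or ENSG00000289027, which were not analysed here, so that its reads may be split or lost. The sterol C14 reductases, which do the same step, had different values: TM7SF2 had a log2 fold change of 0.37 (95% interval 0.04 to 0.70) and LBR, which is also a lamin receptor of the nuclear envelope, one of -0.02 (95% interval -0.25 to 0.22). Per length, TM7SF2 averaged 37.3 TPM and LBR 74.5 TPM under DMSO, and the difference between their fold changes was not tested.

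NSDHL, SC5D and the scaffold protein gene ERG28 had log2 fold changes of 0.13, 0.18 and 0.15 and unadjusted p-values from edgeR of 0.21, 0.17 and 0.12. Their HJ-4 libraries all lay above the DMSO libraries, as did those of 25.2% of all genes tested. For SC5D the lower HJ-4 library was at 35.6 CPM and the higher DMSO library at 34.4 CPM. The 12 post-squalene genes had a median log2 fold change of 0.35. Without HJ-4 replicate 1 the median was 0.25. Across the 21 enzymes, the mean level (log2 TPM) and the log2 fold change had a Spearman's rho of 0.39, a description over genes that share the same 4 libraries.

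The regulators of SREBP2 had log2 fold changes of both signs. SREBF2, the gene of SREBP2 itself, was at 619 and 553 CPM under DMSO versus 655 and 689.9 CPM under HJ-4. The HJ-4 libraries lay above, by a margin no larger than the distance between the DMSO libraries, and the log2 fold change was 0.20 (SE 0.09, 95% interval -0.03 to 0.43, edgeR adjusted p = 0.36). SCAP, its escort, was at 77.5 and 72.1 CPM under DMSO versus 60.3 and 64.1 CPM under HJ-4 (log2 fold change -0.27, SE 0.09, edgeR adjusted p = 0.27). INSIG2, one of the retention proteins, was at 51.9 and 47.9 CPM under DMSO versus 41.5 and 36.0 CPM under HJ-4 (log2 fold change -0.37, SE 0.11, edgeR adjusted p = 0.26). The HJ-4 libraries of SCAP and INSIG2 lay below all DMSO libraries, and these are the 2 members on the lower side at unadjusted p below 0.05. Of the 32 members, 4 had both HJ-4 libraries below, as had 25.6% of all genes tested. By edgeR at unadjusted p below 0.05, 7.93% of all genes tested were lower. SREBF2 lies on chromosome 22 from 41833105 to 41907306, SCAP on chromosome 3 from 47413681 to 47477126 and INSIG2 on chromosome 2 from 118088452 to 118110997.

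INSIG1, the other retention protein and itself a target of SREBP2, was the member whose libraries diverged most. It was at 567 and 507 CPM with DMSO, and at 895 CPM in HJ-4 replicate 1 and 421 CPM in HJ-4 replicate 2. The HJ-4 libraries thus lay on both sides of DMSO, and the log2 fold change of 0.29 had a standard error of 0.35 (edgeR adjusted p = 0.71). It was 0.72 without HJ-4 replicate 2 and -0.37 without HJ-4 replicate 1. A gap between HJ-4 libraries as large as that of INSIG1 occurred in 16 of the 2017 genes averaging 100 CPM or more. INSIG1 lies on chromosome 7 from 155297776 to 155310235 and has no listed overlap with another gene's exons in GENCODE v44.

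**Figure D4:**
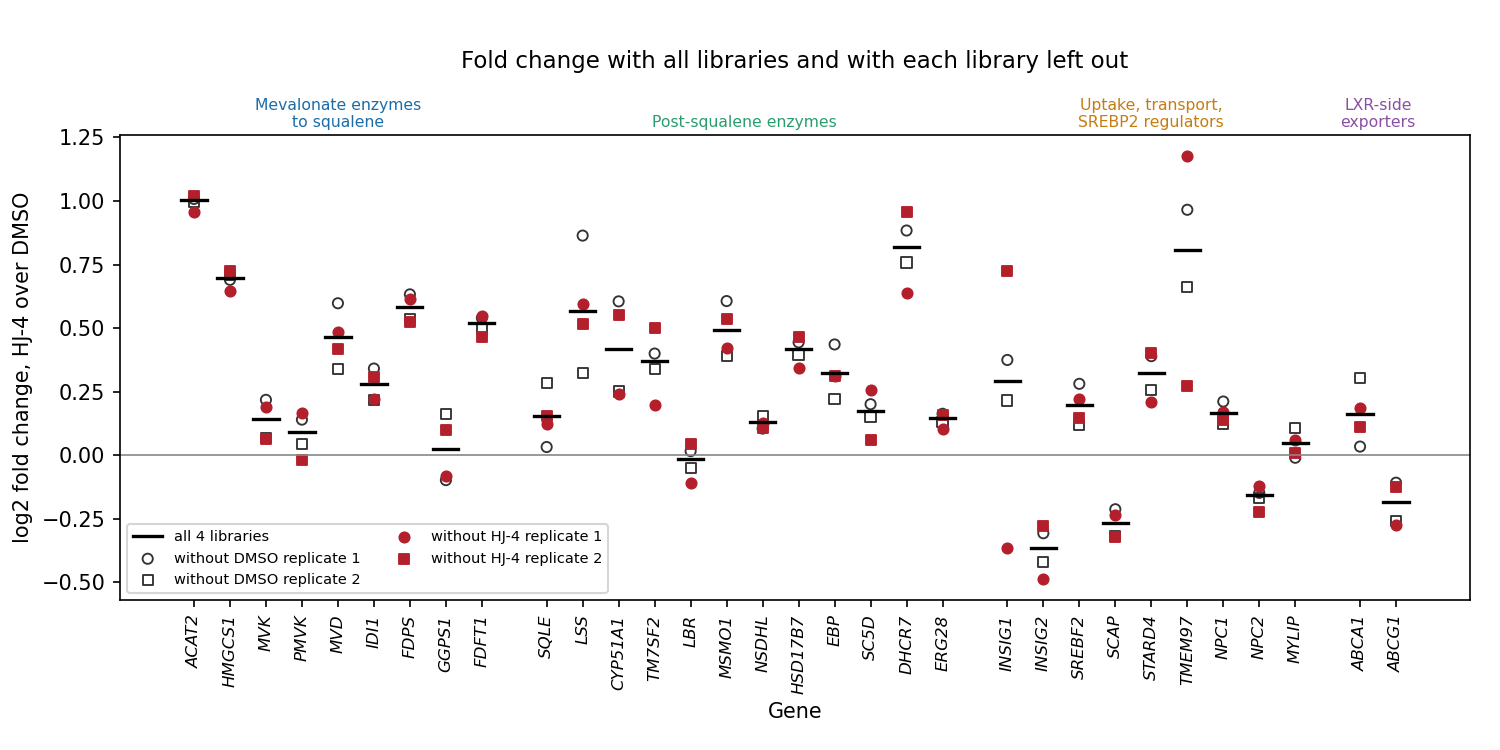
Log2 fold change of each member with all 4 libraries (lines) and with each library left out (open symbols for DMSO, filled for HJ-4, circles for replicate 1, squares for replicate 2), ordered by step. Values of ACAT2 stay between 0.96 and 1.02, and those of INSIG1 run from -0.37 to 0.72.

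Among the 9 uptake and regulator genes, TMEM97 and STARD4 had the largest positive log2 fold changes. STARD4, a soluble sterol carrier and SREBP2 target, was at 212 and 193 CPM under DMSO versus 269.6 and 236 CPM under HJ-4 (log2 fold change 0.32, SE 0.10, edgeR adjusted p = 0.27). The HJ-4 libraries lay above DMSO, and STARD4 is the only uptake or regulator gene on the higher side at unadjusted p below 0.05 in edgeR. That is a count of 1 of 9, where 7.93% of all genes tested were higher. That count changed when a library was left out, and the share over all genes in those fits is not given here. Over all alternatives the log2 fold change of STARD4 ran from 0.21 to 0.40. TMEM97, the sigma-2 receptor, which binds NPC1, was at 17.3 and 14.0 CPM under DMSO versus 19.1 and 35.7 CPM under HJ-4. HJ-4 replicate 2 stood apart, and the log2 fold change of 0.81 (SE 0.32, edgeR adjusted p = 0.32) was 0.27 without that library and 1.18 without HJ-4 replicate 1. Of the exonic bases of TMEM97, 12.3% overlap IFT20 on the opposite strand, which had a log2 fold change of 0.03.

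In lysosomes NPC2 hands cholesterol taken up by the cell to NPC1. NPC1 was at 188 and 177 CPM under DMSO versus 203 and 207 CPM under HJ-4 (log2 fold change 0.17, 95% interval -0.04 to 0.37). NPC2 was at 139.8 and 138 CPM under DMSO versus 119.9 and 129 CPM under HJ-4 (log2 fold change -0.16, 95% interval -0.37 to 0.05). Their HJ-4 libraries lay on opposite sides of DMSO, each by a small margin, and the difference between them was not tested. MYLIP was at 32.5 and 35.2 CPM under DMSO versus 34.3 and 35.6 CPM under HJ-4, which overlap (log2 fold change 0.05, SE 0.10, 95% interval -0.21 to 0.30, edgeR adjusted p = 0.84). The 9 uptake and regulator genes had a median log2 fold change of 0.17, which was 0.06 without HJ-4 replicate 1.

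The exporters were the least abundant members per length, at a mean of 1.48 TPM for ABCA1 and 7.34 TPM for ABCG1 under DMSO. ABCA1, which loads cholesterol onto apolipoproteins, was at 4.52 and 5.45 CPM under DMSO versus 5.43 and 5.72 CPM under HJ-4. The groups overlap, and the log2 fold change was 0.16 (SE 0.17, 95% interval -0.26 to 0.59, edgeR adjusted p = 0.66). ABCG1, which passes cholesterol to lipoprotein particles, was at 14.0 and 12.6 CPM under DMSO versus 12.3 and 11.1 CPM under HJ-4 (log2 fold change -0.19, SE 0.13, 95% interval -0.51 to 0.14, edgeR adjusted p = 0.51). The HJ-4 libraries of ABCG1 lay below DMSO by a margin under the distance between libraries of a condition. ABCA1 lies on chromosome 9 from 104781006 to 104928155 and ABCG1 on chromosome 21 from 42199689 to 42297244.

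Other genes of the pathway were read in the same fit, and edgeR called 0 of them at an adjusted p under 0.05. At unadjusted p below 0.05, edgeR placed 7.93% of all genes tested higher and 7.93% lower. DESeq2 called 2.46% higher and 1.84% lower of the genes to which it gave an adjusted p. In the supply of acetyl-CoA, edgeR gave 3 of 4 genes on the higher side and 0 on the lower at unadjusted p below 0.05, while DESeq2 called 2 of 4 higher and 0 lower. ACSS2, which makes acetyl-CoA from acetate, was at 255 and 220 CPM under DMSO versus 406 and 416 CPM under HJ-4 (log2 fold change 0.79, SE 0.10, edgeR adjusted p = 0.10). ACLY, which makes it from citrate, was at 385 and 362 CPM under DMSO versus 531 and 539 CPM under HJ-4 (log2 fold change 0.52, SE 0.08, edgeR adjusted p = 0.12). Both were called by DESeq2. Their HJ-4 libraries lay above the DMSO libraries, as did those of 25.2% of all genes tested. The citrate carrier gene SLC25A1 had a log2 fold change of 0.25.

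The prenyl branch, which leaves the pathway before squalene, and the genes that cleave or degrade its regulators had median log2 fold changes near 0, at -0.04 for the prenyl branch and 0.02 for SREBP cleavage and degradation. Of 13 genes of the prenyl branch, 1 was higher (RABGGTB, a subunit of Rab prenyltransferase, log2 fold change 0.41) and 1 lower (PDSS1, a subunit that builds the ubiquinone tail, log2 fold change -0.41) by edgeR at unadjusted p below 0.05. Over all genes tested, 7.93% were higher and 7.93% lower at that threshold, which is near the share in this list. FNTA, a subunit shared by the farnesyl and geranylgeranyl transferases, came next by p, with a log2 fold change of -0.15 and both HJ-4 libraries below DMSO. DESeq2 called RABGGTB alone. Of 13 genes of SREBP cleavage and sterol-regulated degradation in the endoplasmic reticulum, 0 were higher or lower at unadjusted p below 0.05 in edgeR and 0 were called by DESeq2. In that list ERLIN2, MBTPS1 (the site-1 protease of SREBP) and SPRING1 had the smallest p and log2 fold changes of 0.21, 0.16 and -0.17.

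Of 26 genes of sterol esterification, transport and side-chain oxidation, 22 were tested, with 3 higher and 1 lower by edgeR at unadjusted p below 0.05. The shares over all genes tested were 7.93% higher and 7.93% lower. DESeq2 called SCARB1 and LRP8. The 3 were SCARB1, the receptor for high-density lipoprotein (log2 fold change 0.43), LRP8, a receptor of the lipoprotein receptor family (0.38 on that scale), and GRAMD1B, a transporter of plasma membrane cholesterol (0.65 on that scale). The lower gene was OSBPL2, an oxysterol-binding protein (log2 fold change -0.26), named after its value was seen. SCARB1 was at 163 and 145 CPM under DMSO versus 202 and 212 CPM under HJ-4, without overlap. Of 13 LXR receptors and other LXR targets, 9 were tested and 0 were higher or lower at unadjusted p below 0.05 in edgeR or called by DESeq2. In that list SMPDL3A, a phosphodiesterase gene, and the receptor gene NR1H3 had log2 fold changes of 0.30 and -0.12. The 8 untested genes of both lists had at most 16 counts in a library.

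**Figure D5:**
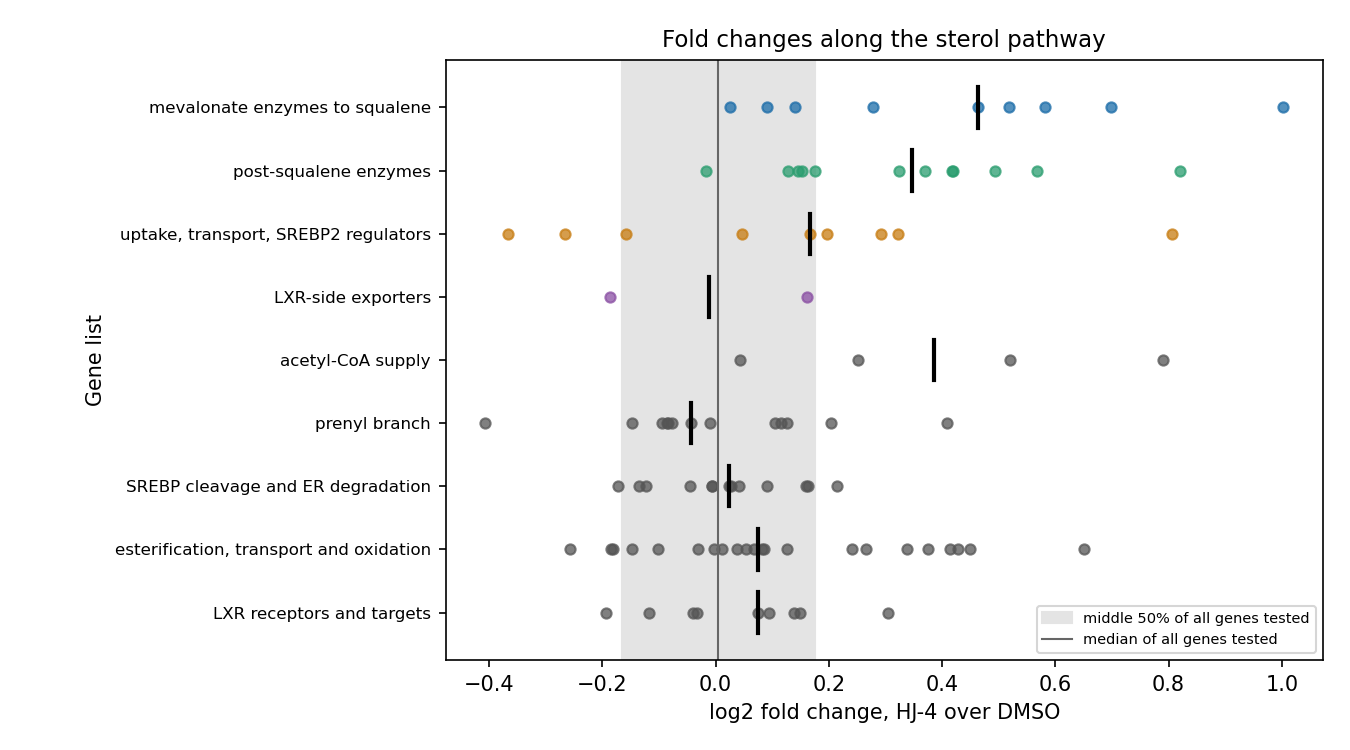
Log2 fold change (HJ-4 over DMSO) of each tested gene in the 4 groups of members and in 5 other lists of the pathway, with list medians as black bars, the middle 50% of all genes tested as a grey band and their median as a line. Medians lie at 0.46 for the mevalonate enzymes, 0.35 for the post-squalene enzymes, 0.39 for acetyl-CoA supply and -0.04 for the prenyl branch.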

How the data were processed

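RNA from HCT116 cells under DMSO or HJ-4 was sequenced, with 2 libraries per condition. The authors deposited a single table of raw read counts by Ensembl gene ID, without normalization. STAR on GRCh38 and featureCounts are named in the study's methods, and Trimmomatic, HISAT2, bedtools and RSEM in the submitters' notes. The program behind the table, its annotation and the strand setting were not given in the sources used here. Reads of overlapping genes may be shared or lost. The methods describe biological triplicates, and 2 libraries per condition were analysed here. Table columns were paired with samples by library name. Between libraries of a condition the chi-square per degree of freedom was 37.9 (DMSO) and 22.8 (HJ-4), so that neither pair was a single library deposited again.

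Symbols, positions and exonic lengths came from GENCODE v44 (20148 of 20263 IDs matched) and upstream sequence from RefSeq on GRCh38.p14, for 28 of 32 members. After filterByExpr, 14044 genes remained. TMM scaling and the quasi-likelihood test of edgeR 4.0.16 (R 4.3.3) were applied, the model holding condition alone, and p was adjusted by the Benjamini-Hochberg method. The study names limma, and edgeR was preferred for counts. TPM were computed from counts and exonic length, and SE from the F statistic. The 95% intervals use the degrees of freedom of that fit and are not adjusted for the number of genes. Scripts were tested on simulated data first. As alternatives, the replicate number was added as a block, each library was left out in turn, the size factors of DESeq2 1.42.0 or total counts replaced TMM, the filter was dropped or set to a mean of 5 CPM, and the Wald test of DESeq2, limma-voom (limma 3.58.1), limma on log2(TPM + 1) and robust fitting replaced the main test.

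The members, the gene lists, the motif letters and the stretches of sequence were chosen with earlier results of these data known. Values for every library are given for INSIG1, SREBF2, MYLIP, ABCA1 and ABCG1 and for up to 5 members of each step with the smallest unadjusted p, other members are given by value, range or count, and up to 3 genes of each other list are named by smallest unadjusted p. A result that this rule would take is not reported here.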

Additional observations from a re-analysis of the deposited data

How the results depend on the processing

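Direction and side of the adjusted threshold held in 397 values of single members over 13 alternatives, and of the rest 11 passed the threshold and 8 changed sign. Since 0 members were called in the test as reported, holding the side of the threshold meant staying uncalled. The 8 values that changed sign belong to GGPS1, PMVK, LBR, MYLIP and INSIG1. GGPS1 was at -0.0036 with total counts. Over the fits that leave out 1 library, log2 fold changes ran from -0.10 to 0.16 for GGPS1, from -0.0177 to 0.17 for PMVK, from -0.11 to 0.0444 for LBR, from -0.0105 to 0.11 for MYLIP and from -0.37 to 0.72 for INSIG1. Where a condition is left with 1 library, that library is assumed to vary like the others.

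The count of members called higher was 8 with DESeq2's Wald test, 2 with robust fitting (ACAT2 and HMGCS1), 0 to 1 when a library was left out (ACAT2 without DMSO replicate 1), and 0 in the other alternatives. Over the whole table, the genes called higher and lower were 6 and 1 in the test as reported, 326 and 244 with DESeq2's Wald test, 31 and 15 with robust fitting, 10 and 2 with no filter, 10 and 3 with limma on log2(TPM + 1), and 7 and 2 with limma-voom, and leaving out a library gave 0 to 59 and 0 to 28. Whether samples of the same replicate number were handled together across conditions is not stated in the labels. The correlation of replicate differences between conditions was -0.06, which cannot decide it. With the replicate block 22 genes were called higher and 9 lower, 0 of them members. With the replicate block, 1 member was lower at unadjusted p below 0.05 in place of 2. Uptake and regulator genes that were higher numbered 2 in place of 1 with the replicate block, with no filter and with DESeq2's Wald test. The shares of all genes at that threshold in these alternatives are not given here.

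Leaving out a library changed the counts of members at unadjusted p below 0.05. The shares over all genes in those fits are not given here. The medians ran from 0.20 to 0.31 for all members, from 0.34 to 0.54 for the mevalonate step, from 0.25 to 0.42 for the post-squalene step, from 0.0582 to 0.21 for uptake and regulators and from -0.045 to 0.0218 for the exporters. ABCA1, with 142 to 191 counts per library, had the fewest counts among the members.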
